A study of Mus musculus with 8 samples.

Results

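The genes described here are 31 genes of cholesterol metabolism in mouse embryonic stem cells (ESCs): 19 enzymes of cholesterol synthesis, 4 genes that control the sterol regulatory element binding proteins (SREBPs), 4 genes of uptake and cellular transport, and 4 genes of the liver X receptor (LXR), efflux, and esterification. They were chosen by function, as a list of gene symbols, with earlier results of these data known. Of the 31, 30 were found by their GENCODE M21 gene identifier among the 37263 counted identifiers, and the identifier of Hmgcs1 was not, so Hmgcs1 was not analysed here. All 30 passed the filter on low counts, which kept 14931 genes.

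RNA-seq was performed on E14 ESCs, a feeder-free line of strain 129/Ola grown in serum with LIF and then transferred to 2i. Every library came from cells in serum-free NDiff 227 medium with LIF, the MEK inhibitor PD0325901, and the GSK3 inhibitor CHIR99021, and one arm of the experiment also received 17 µM vitamin C (vitC). Libraries were made 4, 16, 24, and 32 hr after the transfer in each arm, 1 library for each of the 8 combinations, and no library of cells still in serum was analysed here. Because no combination was repeated, the spread behind each test is the departure of the 2 arms from a shared time course, and not a spread between cultures. Each comparison of times therefore sets 2 libraries against 2, one from each arm.

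The totals ranged from 4753528 to 18434932 counts per library. The 4 hr and 24 hr libraries carry lane number 8 in the names of the deposited files, and the 16 hr and 32 hr libraries lane number 7. Comparisons of 24 hr with 4 hr and of 32 hr with 16 hr are thus made within a lane and share no library, whereas in 16 hr or 32 hr against 4 hr lane and time cannot be told apart. Reads on Lars2 and a pair of features that vary with it took 0.0113% to 0.206% of counts in both 4 hr libraries and the 2i 16 hr library, 0.564% in the 2i 32 hr library, and 4.21% to 7.11% in the other 4. Both 24 hr libraries are among these 4 (5.92% and 6.37%). In 24 hr against 4 hr the share of these reads and time thus cannot be told apart. The summed level of 6 ESC markers stayed between 1277 and 1502 CPM (counts scaled to a common library total), with none of them at 0. Within the sum, from 4 hr to 32 hr, Pou5f1 went from 505 to 338 CPM in 2i and from 465 to 346 CPM with vitC. Sox2 went from 145 to 326 CPM and from 120 to 263 CPM. Zfp42 was also lower at 32 hr in both arms, Esrrb and Klf4 were higher in both, and Nanog differed between the arms. Summed fibroblast markers were 96.5 and 116 CPM at 4 hr and 262 to 677 CPM later, nearly all of it Col1a1 and Col1a2. Among the others Lum stood at 0 to 0.429 CPM. From 4 hr to 32 hr Postn went from 0.990 to 4.16 CPM in 2i and from 0.971 to 14.6 CPM with vitC. Dcn was also higher at 32 hr in both arms, Thy1 was lower in both, and Col3a1 differed between the arms. Primitive endoderm markers summed to 11 to 33.3 CPM, and neural markers to 137 to 273 CPM, of which Nes made up nearly all. The part of these values in the results below was not tested, and in bulk RNA a smaller share of cells with a transcript and less transcript per cell cannot be told apart.

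Cells make cholesterol from acetyl-CoA through mevalonate, farnesyl diphosphate, and squalene. When sterols in the endoplasmic reticulum are low, Scap carries the SREBP precursor to the Golgi, where it is cleaved, and the released factor enters the nucleus and turns on the synthesis genes, the uptake receptors, and its own retention factor Insig1. When sterols are high, Insig proteins hold Scap in place, oxysterols activate LXR, and LXR turns on the exporters Abca1 and Abcg1 and the ubiquitin ligase Mylip, which removes lipoprotein receptors. SREBP binds sterol regulatory elements, commonly beside a CCAAT box bound by NF-Y.

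The promoters of the list are shown first, because most of its members carry the same short box. RefSeq promoter windows (GRCm38.p6) were available for 25 of the 31 genes, and the 250 bases before each start were searched on both strands for 4 sets of letters. The box CCAAT was present in at least 1 window of 21 of the 25 members, against 37.5% of the 27025 genes with a window, and in 15 of the 16 synthesis genes that had one. The 27025 genes were not limited to those past the filter on low counts, whereas all analysed members had passed it. The sterol regulatory element letters TCACCCCAC were found in 1 member, Hmgcs1, and in 0.555% of all genes; allowing any base at the fifth position (TCACNCCAC) added no member, and 1.22% of all genes held that form. The E-box CACGTG was present in 6 of the 25 members, against 6.86% of all genes. TCACCCCAC is contained in the form with the free base, and the other letters do not overlap with it. A match is a description of the letters, and a missing match says nothing of the factor. No member that passed the test between 24 hr and 4 hr held TCACCCCAC, so the sequences printed are those of Hmgcs1, of the 4 genes with the largest rise at 24 hr among those with a single window, and of Insig2, which did not pass the test. The choice of all but Insig2 was made after the values were seen. Each run gives the 250 bases before the start, 5′ to 3′ on the gene's strand, with CCAAT or its reverse complement ATTGG in capitals and, in Hmgcs1, TCACCCCAC also in capitals.
Hmgcs1 (chr13:119690101-119690350, plus strand): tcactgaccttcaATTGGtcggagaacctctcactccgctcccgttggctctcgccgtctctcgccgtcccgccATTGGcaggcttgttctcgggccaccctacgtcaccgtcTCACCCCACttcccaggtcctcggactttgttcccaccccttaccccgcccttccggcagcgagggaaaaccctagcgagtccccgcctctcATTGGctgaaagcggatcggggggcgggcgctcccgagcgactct
Nsdhl (chrX:72918271-72918520, plus strand): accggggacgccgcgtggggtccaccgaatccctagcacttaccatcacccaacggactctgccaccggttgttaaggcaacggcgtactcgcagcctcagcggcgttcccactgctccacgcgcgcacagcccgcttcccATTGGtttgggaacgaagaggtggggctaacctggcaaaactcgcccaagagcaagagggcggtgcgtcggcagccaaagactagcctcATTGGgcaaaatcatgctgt
Tm7sf2 (chr19:6067851-6068100, minus strand): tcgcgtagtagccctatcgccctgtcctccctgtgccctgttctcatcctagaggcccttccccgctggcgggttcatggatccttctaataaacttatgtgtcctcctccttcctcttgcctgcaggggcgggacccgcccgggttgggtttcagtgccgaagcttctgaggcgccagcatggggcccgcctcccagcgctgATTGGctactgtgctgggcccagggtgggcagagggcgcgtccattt
Srebf2 (chr15:82147019-82147268, plus strand): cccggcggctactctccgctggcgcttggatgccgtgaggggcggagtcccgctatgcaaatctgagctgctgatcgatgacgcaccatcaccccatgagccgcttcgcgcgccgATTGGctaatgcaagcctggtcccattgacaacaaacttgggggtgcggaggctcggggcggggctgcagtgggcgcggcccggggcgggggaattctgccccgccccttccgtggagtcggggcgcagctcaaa
Cyp51 (chr5:4104698-4104947, minus strand): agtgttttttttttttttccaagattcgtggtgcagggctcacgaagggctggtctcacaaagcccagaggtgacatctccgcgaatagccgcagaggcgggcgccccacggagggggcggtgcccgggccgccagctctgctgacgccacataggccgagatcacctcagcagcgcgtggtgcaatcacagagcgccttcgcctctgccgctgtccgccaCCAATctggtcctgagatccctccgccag
Insig2 (chr1:121332590-121332839, minus strand): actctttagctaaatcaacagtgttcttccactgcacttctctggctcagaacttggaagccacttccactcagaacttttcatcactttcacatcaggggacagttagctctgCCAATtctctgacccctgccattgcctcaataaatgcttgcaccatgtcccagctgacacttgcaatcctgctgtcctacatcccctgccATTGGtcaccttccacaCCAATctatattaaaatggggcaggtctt
Hmgcs1, whose product condenses acetyl-CoA units ahead of mevalonate, held 3 CCAAT boxes on both sides of its sterol regulatory element letters. Nsdhl held 2 boxes, Tm7sf2, Srebf2, and Cyp51 held 1 each, and the outermost of the 3 Insig2 windows held 3. The box was thus present both in genes whose transcripts rose and in Insig2.

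Most synthesis transcripts were higher from 16 hr on than at 4 hr, and Dhcr7 had the largest rise among them at each time in the fit over both arms. Between 4 hr and 24 hr, within 1 lane, 16 of the 30 members were called higher at an adjusted p under 0.05 in edgeR's quasi-likelihood test, where 11.5% of all 14931 genes were, and 1 member was called lower, where 8.98% of all genes were. The 17 called genes were 11 of 18 synthesis enzymes, Srebf2 and Insig1 of the 4 control genes, Vldlr, Scarb1, and Stard4 of the 4 uptake genes, all higher, and the esterification enzyme Soat1, which was lower. The median log2 fold change was 0.75 over the synthesis enzymes, 0.65 over the control genes, 0.79 over the uptake genes, and 0.07 over the LXR, efflux, and esterification genes, beside 0.01 over all genes. In counts of libraries, both 24 hr libraries lay above both 4 hr libraries in 25 of 30 members, against 30.6% of all genes, and below both in 2, against 31.3% of all genes. The heat map of all 30 genes shows the 4 hr columns as the lowest in most synthesis rows.

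**Figure D1:**
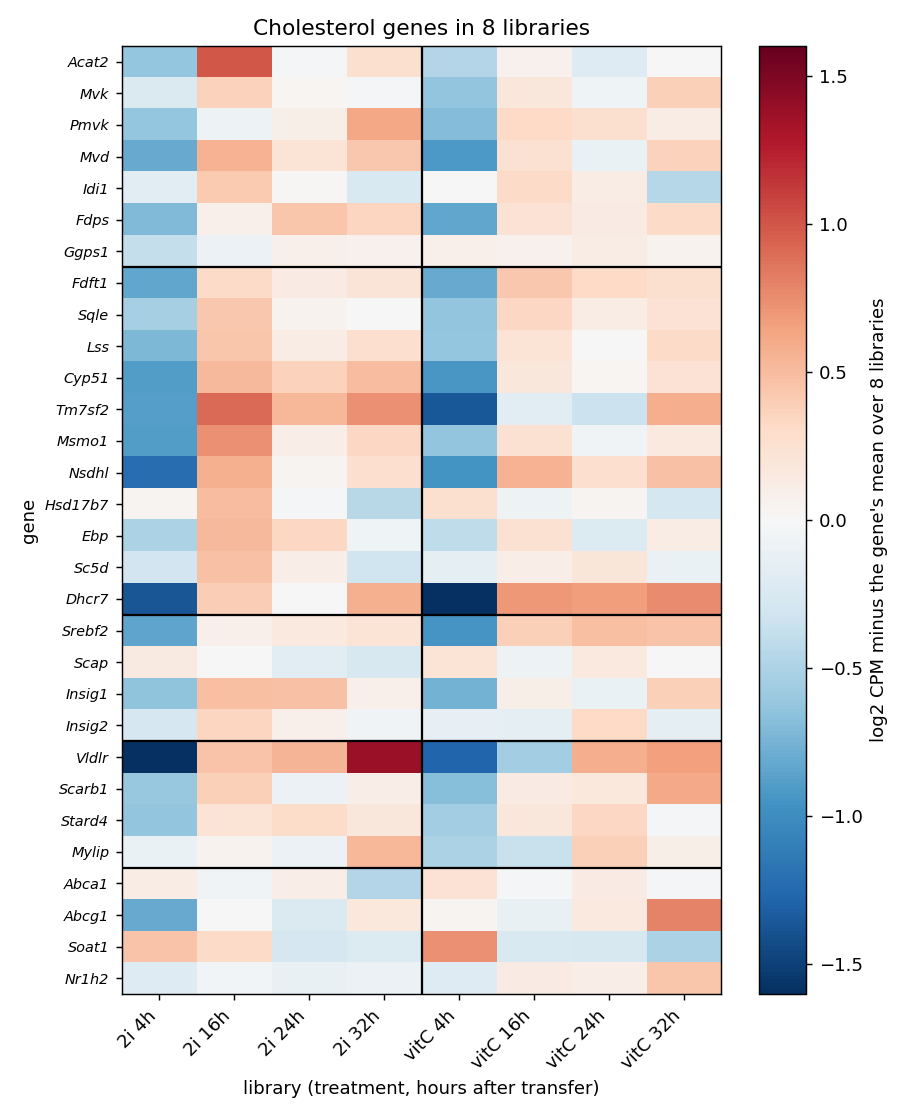
Log2 CPM of each gene (rows, in 5 groups separated by lines: early synthesis, squalene and sterol synthesis, SREBP control, uptake, and LXR with efflux and esterification) minus its mean over the 8 libraries (columns, 1 library each). Dhcr7 and Vldlr have the widest range, and both 4 hr columns are low in most synthesis rows, whereas Soat1 is highest at 4 hr.

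The early enzymes, from acetyl-CoA to farnesyl diphosphate, were mixed. Throughout, the values of each gene are CPM scaled by TMM, always in the order 4, 16, 24, and 32 hr, and fitted log2 fold changes are given ± SE. Acat2, a cytosolic thiolase that joins acetyl-CoA units, stood at 55.1, 168, 82.9, and 101 CPM in 2i and at 61.1, 88.7, 72.8, and 83.7 CPM with vitC. The single highest value was that of the 2i 16 hr library, 168 CPM, which lay above all the others. At 24 hr Acat2 did not pass the test (log2 fold change 0.40 ± 0.21, adjusted p = 0.185). Mvk, the mevalonate kinase, stood at 34.3, 52.0, 40.9, and 39.3 CPM in 2i and at 25.9, 45.7, 38.2, and 52.5 CPM with vitC. Pmvk, which adds the next phosphate, stood at 57.0, 82.7, 93.9, and 134 CPM in 2i and at 54.1, 109, 104, and 95.5 CPM with vitC. Its 4 hr values were the lowest in both arms, and it was called higher at 24 hr (log2 fold change 0.83 ± 0.19, adjusted p = 0.00919), while Mvk was not (0.40 ± 0.20, adjusted p = 0.177).

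Mvd, the decarboxylase that yields isopentenyl diphosphate, stood at 38.7, 99.5, 78.3, and 90.7 CPM in 2i and at 35.8, 79.8, 62.9, and 87.5 CPM with vitC. Every later library exceeded both 4 hr libraries, and the rise at 24 hr was 0.92 ± 0.15 on the log2 scale (adjusted p = 0.00139). Idi1, which isomerises isopentenyl diphosphate, was the lowest of the synthesis genes per length at 4 and 16 hr in 2i and stood at 6.0, 9.0, 6.82, and 5.72 CPM in 2i and at 6.80, 8.37, 7.30, and 4.92 CPM with vitC. Fdps, the farnesyl diphosphate synthase, stood at 48.1, 83.0, 106, and 99.7 CPM in 2i and at 44.2, 92.3, 85.7, and 96.7 CPM with vitC. Idi1 rested on as few as 34 counts and did not pass the test at 24 hr (0.14 ± 0.29, adjusted p = 0.775), whereas Fdps was called higher (1.06 ± 0.15, adjusted p = 0.000724). Ggps1, which leads from farnesyl diphosphate to the geranylgeranyl branch, stood at 29.1, 35.3, 39.9, and 39.5 CPM in 2i and at 39.8, 39.7, 41.0, and 39.4 CPM with vitC. In vitC its 4 libraries differed by less than the counting interval of a single library, and at 24 hr the log2 fold change was 0.25 ± 0.17 (adjusted p = 0.335).

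The enzymes from squalene onward were called in 8 of 11 cases at 24 hr. Fdft1, the squalene synthase, stood at 61.9, 136, 121, and 127 CPM in 2i and at 62.9, 148, 138, and 131 CPM with vitC. Sqle, the squalene epoxidase, stood at 135, 264, 204, and 196 CPM in 2i and at 126, 246, 212, and 230.3 CPM with vitC. Lss, which closes the ring to lanosterol, stood at 100.04, 225, 178, and 199 CPM in 2i and at 107, 191, 163, and 203 CPM with vitC. In all 3 genes each later library exceeded both 4 hr libraries, and the log2 fold changes at 24 hr were 1.05 ± 0.13, 0.67 ± 0.14, and 0.72 ± 0.14 (adjusted p = 0.000408, 0.00657, and 0.00437).

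Cyp51, the lanosterol demethylase, and Msmo1, a methyl sterol oxidase, were the most abundant of these transcripts per length at 16 hr in 2i, at 79.3 and 83.8 RPKM (CPM per kilobase of merged exons). Cyp51 stood at 131, 350.1, 315, and 342 CPM in 2i and at 128, 276, 248, and 287 CPM with vitC. Msmo1 stood at 166, 515, 332, and 389 CPM in 2i and at 200.3, 365, 298, and 344 CPM with vitC. For both, the groups at 4 hr and later did not overlap, with rises at 24 hr of 1.11 ± 0.14 and 0.77 ± 0.17 on the log2 scale (adjusted p = 0.000376 and 0.00791). Tm7sf2, a sterol reductase, stood at 11, 37.8, 29.1, and 33.4 CPM in 2i and at 7.84, 17.7, 15.9, and 30.2 CPM with vitC. Nsdhl, a sterol dehydrogenase that removes a carboxyl group, stood at 23.1, 79.9, 55.5, and 64.4 CPM in 2i and at 27.7, 78.6, 64.8, and 74.3 CPM with vitC. At 24 hr the rise of Tm7sf2 was 1.24 ± 0.25 (adjusted p = 0.00485) and that of Nsdhl was 1.24 ± 0.15 (adjusted p = 0.000313), both on the log2 scale.

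Dhcr7, the last reductase of the pathway, moved the furthest among the enzymes in the fit over both arms. It stood at 19.2, 65.0, 49.4, and 73.9 CPM in 2i and at 15.2, 80.2, 79.2, and 83.6 CPM with vitC. The lowest later library held 49.4 CPM and the highest 4 hr library 19.2 CPM, and the change at 24 hr was 1.85 ± 0.21 on the log2 scale, a 3.6-fold rise (adjusted p = 0.000176).

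Hsd17b7, Ebp, and Sc5d, which act in sterol reduction, isomerisation, and desaturation, were not called at 24 hr. Hsd17b7 stood at 46.2, 63.1, 44.0, and 32.8 CPM in 2i and at 53.6, 42.1, 46.0, and 36.9 CPM with vitC. Ebp stood at 34.7, 70.3, 61.8, and 47.1 CPM in 2i and at 37.0, 58.1, 42.3, and 53.2 CPM with vitC. Sc5d stood at 59.9, 103, 79.6, and 59.4 CPM in 2i and at 66.5, 79.8, 84.4, and 68.8 CPM with vitC. In 2i each of the 3 was highest at 16 hr, and Hsd17b7 was the only synthesis enzyme with a negative log2 fold change at 24 hr (-0.15 ± 0.20, adjusted p = 0.621), beside 0.54 ± 0.19 for Ebp (adjusted p = 0.058) and 0.37 ± 0.16 for Sc5d (adjusted p = 0.12).

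Among the control genes, the factor and one retention protein rose, and the escort did not pass the test. Srebf2, which encodes the SREBP that mainly drives cholesterol genes, stood at 129, 245, 257, and 271 CPM in 2i and at 120.4, 303, 324, and 319 CPM with vitC. Insig1 stood at 88.7, 194, 193, and 146 CPM in 2i and at 81.8, 148, 129, and 181 CPM with vitC. For both, the 4 hr values were the lowest in each arm, and the rises at 24 hr were 1.20 ± 0.15 and 0.91 ± 0.19 on the log2 scale (adjusted p = 0.000324 and 0.00591). Insig2, the second retention protein, stood at 18.3, 27.8, 23.3, and 21.2 CPM in 2i and at 20.2, 19.9, 27.5, and 19.9 CPM with vitC. Scap stood at 51.9, 47.2, 41.3, and 39.2 CPM in 2i and at 54.6, 44.4, 52.2, and 46.5 CPM with vitC. Neither passed the test at 24 hr (0.39 ± 0.22, adjusted p = 0.224, and -0.20 ± 0.16, adjusted p = 0.405), and both had overlapping values at 4 hr and later.

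Of the uptake and transport genes, Vldlr, a lipoprotein receptor, had the largest change of the list. It stood at 4.14, 19.6, 20.7, and 36.9 CPM in 2i and at 5.90, 9.67, 21.3, and 22.4 CPM with vitC. The 4 hr libraries were the lowest in each arm, the 24 hr libraries held 20.7 and 21.3 CPM, and the change at 24 hr was 2.04 ± 0.33 on the log2 scale, a 4.13-fold rise (adjusted p = 0.00147). Scarb1, the high-density lipoprotein receptor, stood at 25.3, 50.3, 36.1, and 41.5 CPM in 2i and at 24.1, 42.1, 43.4, and 58.5 CPM with vitC. Stard4, a soluble sterol carrier, stood at 74.7, 134, 141, and 131 CPM in 2i and at 78.3, 131, 145, and 114 CPM with vitC. Their later libraries also lay above both 4 hr libraries, with log2 fold changes at 24 hr of 0.68 ± 0.20 and 0.90 ± 0.14 (adjusted p = 0.0296 and 0.00117). Mylip stood at 5.53, 6.16, 5.57, and 8.55 CPM in 2i and at 4.18, 4.62, 7.73, and 6.34 CPM with vitC. It rested on 32 to 117 counts and did not pass the test at 24 hr (0.42 ± 0.33, adjusted p = 0.402).

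None of the 4 members for LXR, efflux, and esterification was called higher at 24 hr, where 11.5% of all genes were. Abca1, the exporter to lipid-poor apolipoprotein, stood at 42.4, 37.5, 42.1, and 28.2 CPM in 2i and at 45.6, 38.1, 42.7, and 38.0 CPM with vitC. Abcg1, the exporter to high-density lipoprotein, stood at 4.66, 8.05, 6.90, and 9.14 CPM in 2i and at 8.37, 7.50, 9.02, and 14.1 CPM with vitC. Nr1h2, which encodes LXR beta, stood at 36.1, 40.4, 38.3, and 39.0 CPM in 2i and at 36.2, 45.6, 44.7, and 56.5 CPM with vitC. None of the 3 passed the test at 24 hr: the log2 fold changes were -0.05 ± 0.17, 0.33 ± 0.30, and 0.19 ± 0.17 (adjusted p = 0.868, 0.468, and 0.467). Soat1, which esterifies cholesterol for storage, went the other way and stood at 191, 172, 115, and 119.9 CPM in 2i and at 232, 117, 117, and 97.8 CPM with vitC. Both 24 hr libraries lay below both 4 hr libraries, and Soat1 fell by 0.87 on the log2 scale with an SE of 0.18 (adjusted p = 0.00626).

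**Figure D2:**
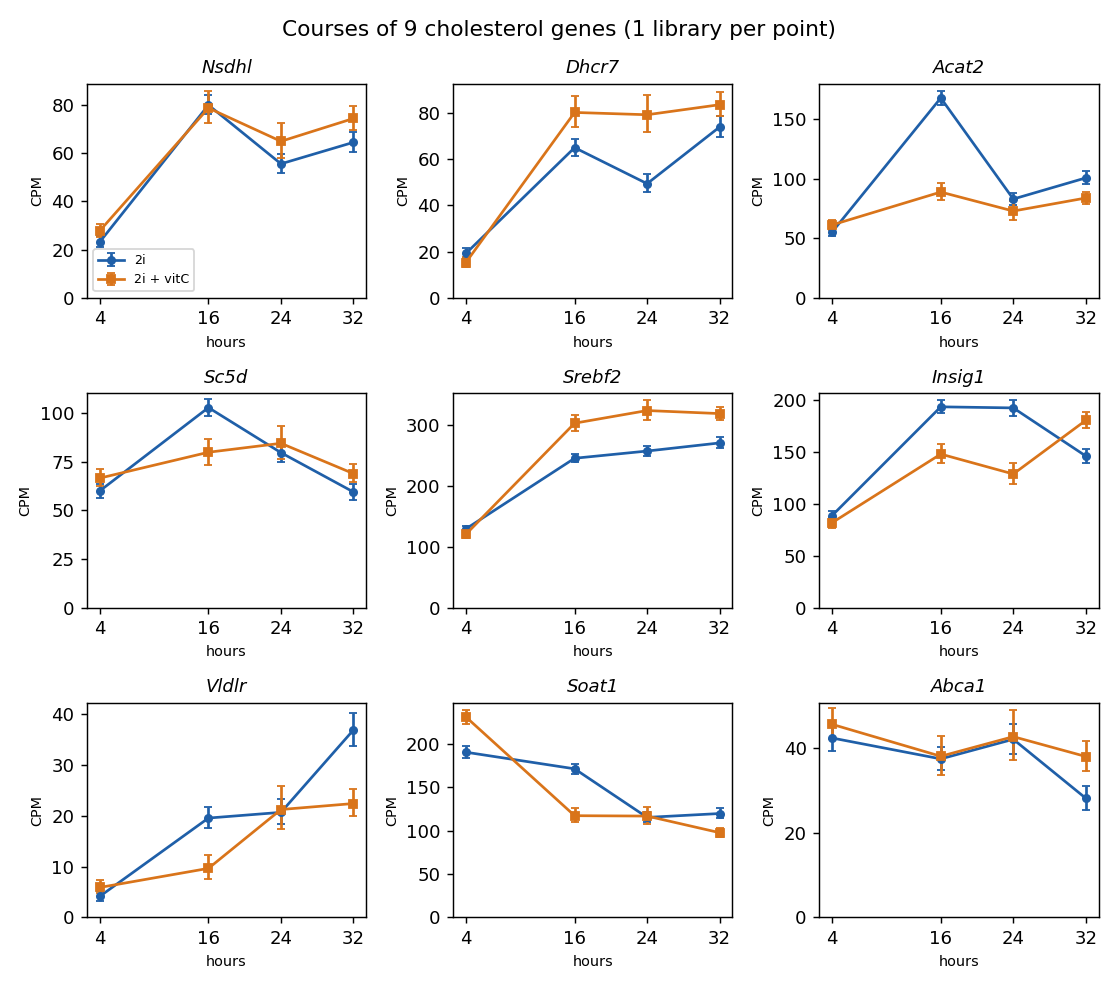
CPM (vertical axis, from 0) against hours after transfer (horizontal axis) for 9 genes, with 1 library per point, circles for 2i and squares for 2i with vitC. Bars are Wilson 95% intervals and cover counting error only. Nsdhl, Dhcr7, and Srebf2 stay above their 4 hr level at every later time in both arms, Acat2 peaks in the 2i 16 hr library, and Soat1 is highest at 4 hr in both arms.

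When single libraries were left out of the 24 hr comparison, 7 of the 17 calls were lost at least once, with log2 changes of 0.51 to 1.06 in size and adjusted p of 0.0512 to 0.22. Tm7sf2, Msmo1, Insig1, Scarb1, and Soat1 were lost without the 2i 24 hr library, Pmvk, Sqle, Msmo1, and Scarb1 without the vitC 24 hr library, Pmvk, Sqle, Scarb1, and Soat1 without the vitC 4 hr library, and Msmo1 without the 2i 4 hr library. The calls over all genes also fell in each of these fits. Lss and Scarb1 lost their calls with offsets for GC content and length, and Scarb1 also without the treatment term. Mvd, Fdps, Fdft1, Cyp51, Nsdhl, Dhcr7, Srebf2, Vldlr, and Stard4 kept their calls in every fit with 1 library left out and under the other alternatives except one. In that one, with the Lars2 share of each library as a covariate, no member and 0 of all genes were called at 24 hr. There 27 of the 30 had positive log2 fold changes with a median of 0.86, and Soat1 turned to 0.21 (adjusted p = 0.891).

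At 16 hr and at 32 hr, both compared with the same 4 hr libraries and in the other lane, more members were called. At 16 hr 20 members were called higher and none lower (9.16% and 7.24% of all genes), and at 32 hr 19 were called higher and 1 lower (13.5% and 11.8% of all genes). The median over the synthesis enzymes was 0.99 at 16 hr and 0.97 at 32 hr on the log2 scale. Besides the 16 genes called higher at 24 hr, the 16 hr list held Acat2 (1.10 ± 0.20), Mvk (0.70 ± 0.19), Ebp (0.84 ± 0.18), and Sc5d (0.54 ± 0.16), and the 32 hr list held Acat2 (0.65 ± 0.20), Mvk (0.61 ± 0.19), and Abcg1 (0.85 ± 0.28). Against 4 hr, the log2 fold changes at 16, 24, and 32 hr were 2.05, 1.85, and 2.17 for Dhcr7, 1.52, 2.04, and 2.53 for Vldlr, 1.65, 1.24, and 1.45 for Nsdhl, and 1.12, 1.20, and 1.23 for Srebf2. Soat1 was at -0.56 ± 0.18 at 16 hr (adjusted p = 0.0508) and fell by 0.97 at 32 hr with an SE of 0.18 (adjusted p = 0.00244).

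Leaving out 1 library removed 6 calls at 16 hr and 9 at 32 hr in at least 1 fit, with adjusted p up to 0.363 and 0.405. The largest loss was without the vitC 32 hr library, which left 1 library at 32 hr. Acat2, Mvk, Abcg1, Sqle, Insig1, Scarb1, and Soat1 were then not called at 32 hr, and the calls over all genes fell as well. Abcg1 was also lost without each of the 2i 4, 24, and 32 hr and vitC 4 and 24 hr libraries and under 4 other alternatives. With offsets for GC content and length, Abcg1 was not called at 32 hr (0.61, adjusted p = 0.134), and Abca1 (-0.55, adjusted p = 0.0332) and Scap (-0.62, adjusted p = 0.0113) were called lower. At 16 hr Sc5d was the least stable, lost without any one library other than the vitC 16 hr library, with values of 0.28 to 0.61. With the Lars2 share of each library as a covariate, the calls were Acat2, Cyp51, Msmo1, Nsdhl, and Vldlr at 16 hr and those 5 with Dhcr7 at 32 hr. Over all genes that fit called 73 at 16 hr and 159 at 32 hr, beside 2448 and 3785 without the covariate.

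The course from 16 hr to 32 hr, within the other lane, held no member past the threshold. In edgeR 0 of 30 members were called (0.335% of all genes were called higher and 0.248% lower). DESeq2 also called 0, with 5 at an unadjusted p under 0.05. In edgeR 6 of the 30 had an unadjusted p under 0.05, where 2129 of all 14931 genes did. The 6 were Hsd17b7 (-0.60 ± 0.20, adjusted p = 0.192), Sc5d (-0.52 ± 0.16, adjusted p = 0.169), Idi1 (-0.71 ± 0.28, adjusted p = 0.277), Acat2 (-0.45 ± 0.20, adjusted p = 0.335), Soat1 (-0.41 ± 0.18, adjusted p = 0.333), and, in the opposite direction, Vldlr (1.00 ± 0.30, adjusted p = 0.153). The plot of both within-lane comparisons shows these values beside the change from 4 hr to 24 hr.

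**Figure D3:**
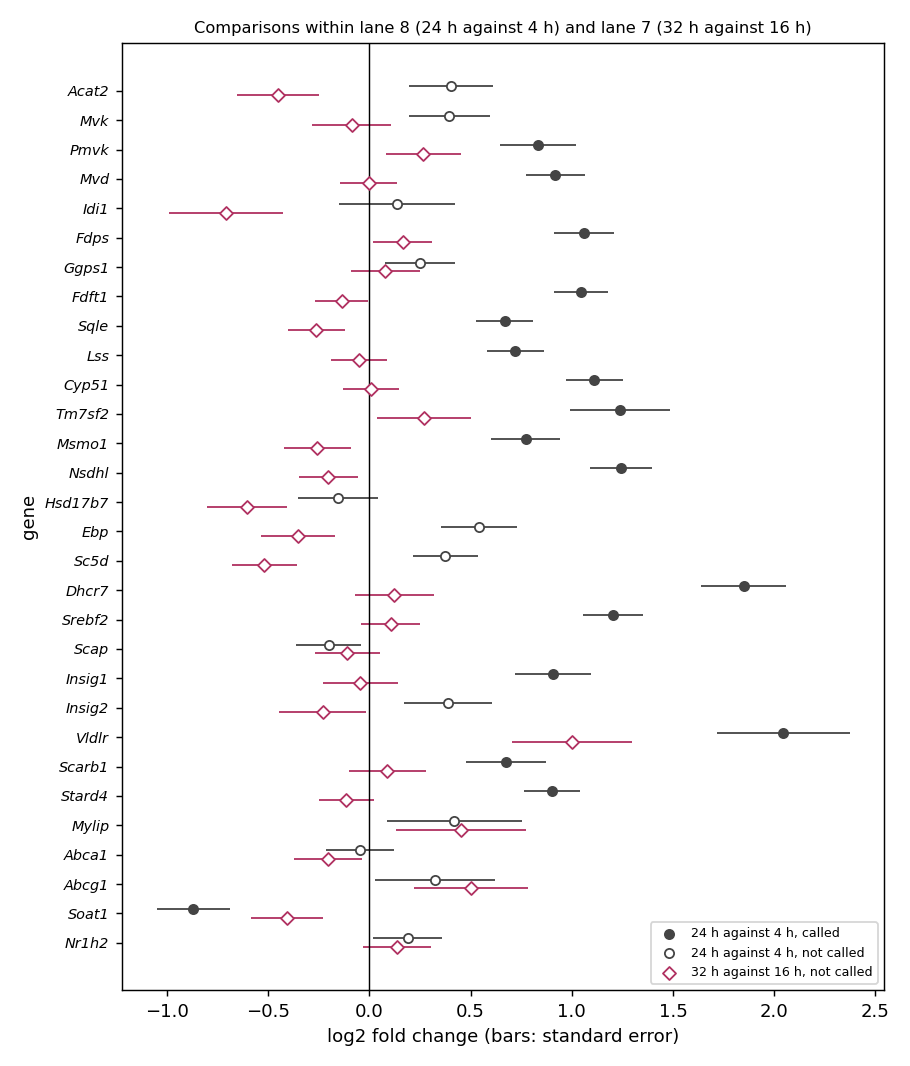
Fitted log2 fold change (horizontal axis) with its standard error (bars) for each of 30 genes, for 24 hr against 4 hr (circles, filled where called) and 32 hr against 16 hr (diamonds, none called). The 17 filled circles lie at 0.67 or above, except Soat1 at -0.87, and most diamonds lie near 0, with Vldlr at 1.00 and Idi1 at -0.71 as the ends.

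The later course looked different in the 2 arms, as a description of single libraries. In 2i 14 of 18 synthesis enzymes were lower at 32 hr than at 16 hr, with a median log2 ratio of -0.24, and 5 of them by at least 0.5: Hsd17b7 (-0.94), Sc5d (-0.79), Acat2 (-0.74), Idi1 (-0.64), and Ebp (-0.58). With vitC 11 of 18 were lower, with a median of -0.08, and Idi1 alone by at least 0.5 (-0.75). In 2i 14 of the 18 had their highest value at 16 hr, where 24.1% of all genes did, and with vitC 8 of 18 did, where 15.5% of all genes did. Pmvk in 2i (0.70), Tm7sf2 with vitC (0.76), Abcg1 with vitC (0.90), and Vldlr in both arms (0.91 and 1.20) had log2 ratios of at least 0.5 in the other direction. Each of these ratios sets 1 library against 1. The share of all genes that fell or rose within an arm was not computed. These counts thus cannot be told apart from a general shift between 2 libraries. The difference between the arms was tested only as a linear trend of the vitC ratio over the hours, which called no member (given with vitC below).

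VitC, compared with 2i at matched times, also called no member. Over the 4 times edgeR called 0 of 30 members (0.167% of all genes were called), and DESeq2 called 0, with 2 at an unadjusted p under 0.05. In edgeR 3 of the 30 had an unadjusted p under 0.05, where 2062 of all 14931 genes did, so these members do not stand out. The 3 were Tm7sf2 (-0.64 ± 0.17, adjusted p = 0.115), Cyp51 (-0.24 ± 0.10, adjusted p = 0.29), and Abcg1 (0.45 ± 0.21, adjusted p = 0.358). Tm7sf2 stood lower with vitC at all 4 times, with log2 ratios of -0.47, -1.08, -0.87, and -0.15, and so did Cyp51 and Mvd. Abca1, Fdft1, and Nr1h2 stood higher at all 4 times. These were 3 of 30 members in each direction. The share of all genes with the same sign at all 4 times was not computed, so no vitC effect is read from them. A linear trend of the vitC ratio over the hours was called for 0 of 30 members (0% of all genes). Mvk alone had an unadjusted p under 0.05 (0.0273 ± 0.012 in log2 per hour), where 431 of all 14931 genes did.

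At 16 hr 13 of 18 synthesis enzymes had less with vitC than in 2i, where 52.0% of all genes did, with a median log2 ratio of -0.21. The widest gaps at that time were those of Tm7sf2 (-1.08), Vldlr (-1.01), Acat2 (-0.92), and Hsd17b7 (-0.58). At 4, 24, and 32 hr 8, 9, and 9 of the 18 had less with vitC, with medians of 0.06, -0.03, and 0.01. The 2i 16 hr library had 0.206% of its counts on the Lars2 features and the vitC 16 hr library 7.11%, and the part of this difference in the 16 hr values was not tested. The plot of vitC against 2i shows the groups at each time.

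**Figure D4:**
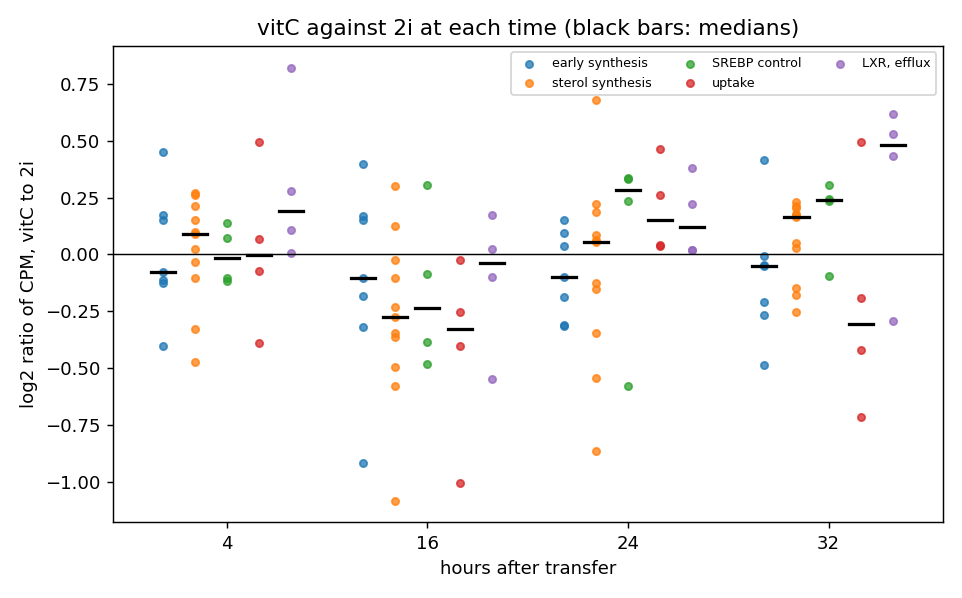
Log2 ratio of CPM with vitC to CPM in 2i (vertical axis) at 4, 16, 24, and 32 hr (horizontal axis) for each gene (points, coloured by group), with black bars at the group medians and 1 library behind each side of a ratio. The sterol synthesis and uptake medians lie below 0 at 16 hr, at -0.27 and -0.33, and the LXR and efflux median lies at 0.48 at 32 hr.

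The other genes of the same pathways were 45 genes in 4 lists. At 24 hr 11.5% of all genes were called higher and 8.98% lower. Of 10 genes of SREBP cleavage and sterol-regulated degradation, 2 were called higher at 24 hr and 1 lower, and the median was -0.16. Those called higher were Mbtps2 (0.89), the protease that releases SREBP in the membrane, and Srebf1 (0.49), which encodes the second SREBP. Of 10 genes of other isoprenoid branches none was called, and the median was -0.27. Of 15 genes of sterol transport and ester hydrolysis 4 were called higher and 1 lower, with a median of 0.21: Lrp1, a large endocytic receptor (1.04), Npc2, a lysosomal sterol carrier (0.97), Gramd1a, a sterol transfer protein at membrane contacts (0.96), and Nceh1, an ester hydrolase (0.49), were higher, and Cav1, the caveolar coat protein, was lower (-1.66). Of 10 oxysterol and other LXR genes 7 could be tested and 2 were called higher, Lpcat3, a phospholipid remodelling enzyme (0.84), and Ncor1, a nuclear receptor corepressor (0.73). Between 16 hr and 32 hr no gene of these 4 lists was called (0.335% of all genes were called higher and 0.248% lower), and vitC called none of them (0.167% of all genes were called). Other than Cav1, Lrp1, and Npc2, these genes were named after their values were seen.

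Some of the transcripts share exon bases with neighbours, and the strand setting of the counting was not given in the sources used here. Fdps shares 26.7% of its exon bases in GENCODE M21 with Gm43738 and Tm7sf2 12.1% with Vps51 on the same strand, and Fdft1 shares 18.3% with Ctsb on the other strand, so their counts are less certain than those of the other genes called at 24 hr.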

How the data were processed

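Ribosomal RNA was depleted from total RNA, TruSeq libraries were sequenced as single-end 50-base reads, and the authors deposited raw read counts per Ensembl gene, without normalization. The submitters' processing notes name GSNAP, HTSeq, and the build NCBIM37 (mm9); the annotation and the strand setting were not given in the sources used here. Symbols, merged exon lengths, and GC content came from GENCODE M21 and promoter windows from RefSeq (GRCm38.p6), in which the last 25 letters of 29 of 32 member windows matched a transcript of the gene as given.

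The inhibitors were used at 1 µM (PD0325901) and 3 µM (CHIR99021), which the labels give in mM. Groups and times came from the sample labels. Counts were scaled by TMM and tested with edgeR 4.0.16 in R 4.3.3 (quasi-likelihood test, two-sided) on genes that reached 1 CPM in 2 or more libraries, with treatment and time as additive terms (3 residual degrees of freedom), with a vitC by hours term added for the trend of the vitC ratio (2 residual degrees of freedom). P-values were adjusted over all genes by the method of Benjamini and Hochberg, with a threshold of 0.05. Genes past it are called. The scripts were tested on simulated counts. Depth gives a Wilson 95% interval whose half-width is at most 35.2% of the value for the member with the fewest counts (Mylip) and 5.05% for Srebf2, both for counting error only. Results were recomputed with DESeq2 1.42.0, with other normalization factors, with no or a stricter filter, with the treatment term or the time block dropped, and by leaving out each library, removing the Lars2 features or using their share as a covariate, and offsets for GC content and length.

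The members, the pathway lists, and the marker lists were chosen with earlier results of these data known. All members are named, and 1 pathway gene is counted but otherwise not reported here. Of other pathway genes, the rule named the 3 with the largest change past the threshold at 24 hr against 4 hr or 32 hr against 16 hr. No member met the rule for a treatment difference, which asked for an adjusted p under 0.05 for the trend or opposite log2 ratios of at least 0.5 in both arms.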

Additional observations from a re-analysis of the deposited data

How the results depend on the processing

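Of the 3210 values of single members under an alternative, 109 lost a call, 45 of them with the share of reads on the Lars2 features as a covariate, 22 gained one, and 1 called value changed sign; 144 values called in neither fit also changed sign. That covariate costs 1 of the 3 residual degrees of freedom, and in 24 hr against 4 hr it cannot be told apart from time. With it, the members called fell from 17 to 0 at 24 hr against 4 hr (14 at an unadjusted p under 0.05). They fell from 20 to 5 at 16 hr and from 20 to 6 at 32 hr. Over all genes the calls fell from 3061 to 0 at 24 hr, from 2448 to 73 at 16 hr, and from 3785 to 159 at 32 hr. At 32 hr against 16 hr 1 member, Vldlr (1.16, adjusted p = 0.0339), was called, beside 114 of all genes. In that fit Soat1 at 24 hr against 4 hr had a log2 fold change of 0.21 in place of -0.87 (adjusted p = 0.891); the cause was not tested. Without a filter on low counts 2 members were called at 32 hr against 16 hr, Vldlr (1.01) and Hsd17b7 (-0.59), and 1, Tm7sf2 (-0.64), was called for vitC. Leaving out 1 library gave 12 to 18 calls at 24 hr, 16 to 19 at 16 hr, 13 to 21 at 32 hr (13 without the vitC 32 hr library), and 0 to 1 at 32 hr against 16 hr (Hsd17b7 without the vitC 16 hr library, -0.93). In the comparisons with 4 hr, leaving out a library of either time also lowered the calls over all genes. Under the other alternatives the counts of called members stayed within 1.5 times those reported. Soat1 at 16 hr, not called in the report, was called under 7 alternatives, DESeq2 among them (-0.57, adjusted p = 0.0312). The counts for vitC and for its trend over the hours stayed at 0 under all other alternatives, in a design whose error has 3 and 2 degrees of freedom. The labels give no replicate number, so no replicate block was fitted; vitC and 2i were compared within times, and without that time block 0 members were called for vitC. Abcg1 at 32 hr kept its call under 7 of 17 alternatives (the covariate not counted); among those without it were library totals (adjusted p = 0.0507), DESeq2 (0.0677), no treatment term (0.112), and the offsets for GC content and length (0.134), with log2 fold changes of 0.84, 0.84, 0.84, and 0.61. Depth limits Idi1, Mylip, and Abcg1 most, which held 34, 32, and 42 counts in their thinnest libraries.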
